A study of Drosophila melanogaster with 7 samples.

Results

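The genes described here encode the structural proteins of insect cuticle. The rule that picks them reads the gene symbol and uses no measured value. It takes Cpr genes, the larval, pupal and adult families named Lcp, Pcp, Ccp and Acp, and the Tweedle genes. The Tweedle genes are those named Twdl, with Tb, the gene also called TwdlA. The RefSeq gene table of Drosophila melanogaster lists 123 such genes. Of these, 114 had a probe named for them alone, 116 probes in all, among 11610 genes and 14569 probes of the array. The other 9 (Ccp84Af, Cpr65Ax1, Cpr65Ay, Lcp1, Lcp2, Lcp3, Lcp4, Lcp65Ab1 and Lcp65Ab2) had no such probe and were not analysed here. By family, the measured genes were 68 Cpr genes, of which several lie in the 65A cluster, 27 Tweedle genes, 6 Ccp84A genes, Pcp, Acp65Aa and the Lcp genes.

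Salivary glands were taken from crawling larvae of the last instar, and each of 7 two-colour INDAC FL003 arrays compared total RNA of 1 cleaved and 1 intact sample. In a w1118 background with the heat-inducible transgene hs-TEV/+, cleaved samples were Rad21(TEV) on a Rad21ex15 chromosome over Rad21ex3, so that the Rad21 they carried was the myc10-tagged form with sites for TEV, a viral protease. The intact samples were of 2 kinds. On arrays 1.1, 1.2 and 1.3 they had genomic Rad21 over Rad21ex3, and on arrays 2.1 to 2.4 they had the transgene tgRad21 on a Rad21ex3 chromosome over Rad21ex3. All samples shared w1118, hs-TEV/+, at least 1 Rad21ex3 chromosome and the treatment, which was 45 min at 37 °C followed by 10 to 12 h at room temperature. Rad21 closes the cohesin ring, and its cleavage opens the ring. The protease was driven by a heat-shock promoter, which is not limited to 1 cell type, and cleaved and intact glands came from different fly stocks, so stock and cleavage cannot be told apart. The 7 pairs were generated independently, and the number of animals behind each sample is not stated in the labels.

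Cuticle is a layered extracellular matrix of chitin and protein. The epidermis, the tracheae, the foregut and hindgut and the duct of the salivary gland lay it down on their apical surface. Most Cpr, Lcp, Ccp, Pcp and Acp proteins carry the Rebers and Riddiford motif, which binds chitin, while Tweedle proteins form a separate family whose mutants change the shape of the larva. Each moult renews the cuticle, and pulses of the steroid ecdysone time which of these genes are used. In the last larval stage the secretory cells of the gland are known for making glue proteins, not cuticle.

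Each value is a deposited log ratio of the 2 samples on an array, read as log2, with the sign as deposited. Negative values likely stand for less transcript in cleaved glands, on a basis outside the labels: the ecdysone receptor gene EcR, known from work on these glands to lose transcript on cohesin cleavage, had −1.77 and was negative on 7 of 7 arrays. The fitted ratio of a gene is its limma estimate over the 7 arrays with a term for dye orientation, ± the standard error. A gene passed the test at an adjusted p under 0.05 (two-sided, Benjamini-Hochberg over all 11610 genes).

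The cuticle protein genes as a whole lay close to 0, and so did the median of all genes. Of 114 genes, 4 passed the test (3.51%), against 8.14% of all genes on the array. Cpr78Ca and Cpr51A were the 2 with negative ratios, where 3.82% of all genes passed in that direction, and Cpr47Eb and Cpr35B were the 2 with positive ratios, where 4.32% of all genes did. None of the 27 Tweedle genes, the 6 Ccp84A genes and the 15 genes of the 65A cluster passed. The median fitted ratio was 0.01 over the 114 genes and 0.02 over all genes. The ratio was positive in 60 genes and negative in 54, its size stayed under 0.5 in 100, and 3 genes (Cpr78Ca, Cpr51A and Cpr11B) reached a size of 1. The median size was 0.18 over the 114 genes and 0.21 over all genes. The 95% interval of the fitted ratio lay within 1 of 0 on both sides for 83 of the 114 genes (72.8%), against 74.9% of all genes. At an unadjusted p under 0.05 in limma, 6 genes (5.26%) were counted, against 20.3% of all genes. They were the 4 above, Cpr67Fb and Cpr78Cc, so no gene of the Tweedle, Ccp84A or 65A families was among them.

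**Figure D1:**
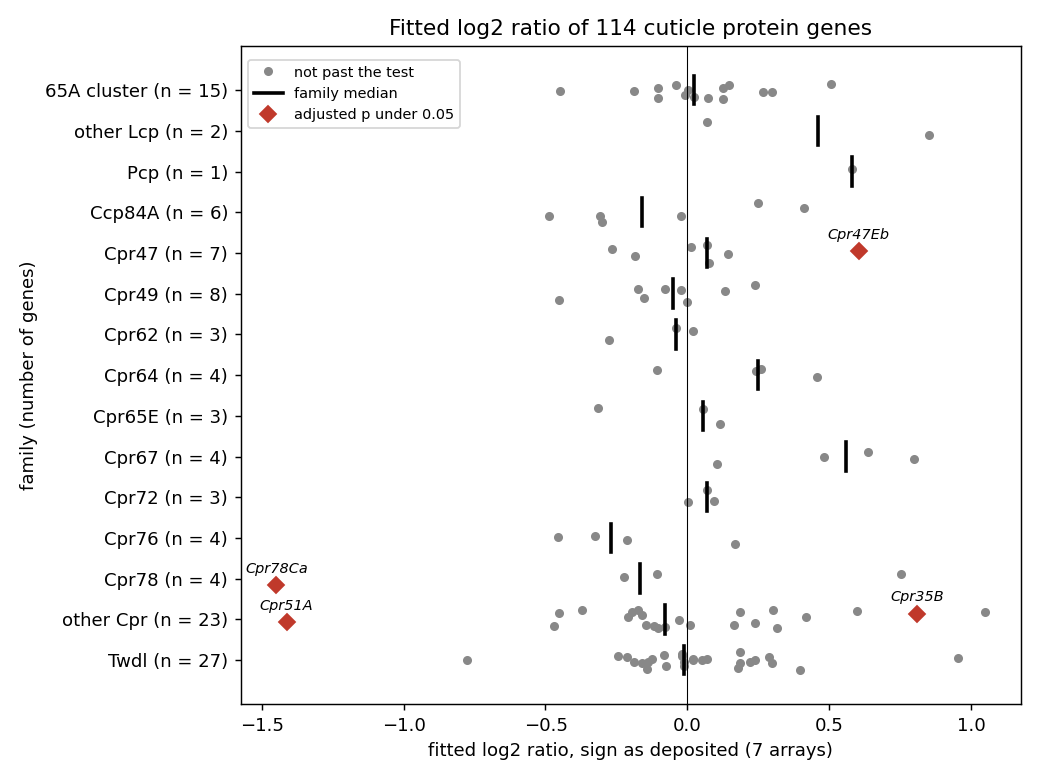
Fitted log2 ratio (horizontal axis, sign as deposited, 7 arrays) of each of the 114 cuticle protein genes, by family (vertical axis). Grey points did not pass the test, red diamonds are Cpr78Ca, Cpr51A, Cpr47Eb and Cpr35B, which did, and black bars are family medians. Most families have members on both sides of 0, while all members of Cpr67, Cpr72, the other Lcp genes and Pcp are on the positive side.

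Cpr78Ca encodes a Cpr protein of a small gene group on chromosome arm 3L. Its log2 ratios were −0.98, −1.02 and −1.86 on the 3 genomic Rad21 arrays, and −1.54, −0.48, −0.67 and −3.15 on the 4 transgenic Rad21 arrays. It was negative on all 7 arrays, lowest on array 2.4 and nearest to 0 on array 2.2. The fitted ratio was −1.45 ± 0.28 (limma adjusted p = 0.0192). The call ended without array 1.1, 1.2, 1.3 or 2.1 (limma adjusted p between 0.0516 and 0.0602), while the ratio without any 1 array lay between −1.76 and −1.14. Next to it along the chromosome is Cpr78Cb, another Cpr gene, with −0.11 ± 0.20. Cpr78Cc of the same group had 0.75 ± 0.30 (limma adjusted p = 0.205). Cpr78E, whose symbol gives another band, had −0.22 ± 0.27. The size seen for Cpr78Ca was not shared by Cpr78Cb, Cpr78Cc or Cpr78E.

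Cpr51A, a Cpr gene on chromosome arm 2R, had log2 ratios of −1.30, −0.42 and −2.42 on the genomic Rad21 arrays, and −1.35, 0.08, −0.999 and −2.82 on the transgenic Rad21 arrays. It was negative on 6 of 7 arrays, with array 2.2 at about 0. The fitted ratio was −1.41 ± 0.27 (limma adjusted p = 0.0179). The call ended without array 1.1, 1.3 or 2.4 (limma adjusted p between 0.0548 and 0.0737). For Cpr51A and Cpr78Ca alike, arrays 1.3 and 2.4 gave the lowest values within their sets. By the channel labels, the cleaved sample was in Cy3 on arrays 1.3, 2.3 and 2.4. The dye term was 1.33 for Cpr51A and 0.89 for Cpr78Ca. Neither dye term passed (limma adjusted p of 0.536 and 0.599), and 0.0% of all genes did. The gene that follows Cpr51A along the chromosome, CG30197, had −1.25 ± 0.57 and did not pass (limma adjusted p = 0.274), and Asx on the other side, a Polycomb-related chromatin regulator, had −0.04 ± 0.15.

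Cpr47Eb, also on 2R, had small positive ratios on every array. They were 0.70, 0.60 and 0.97 on the genomic Rad21 arrays, and 0.35, 0.34, 0.81 and 0.36 on the transgenic Rad21 arrays. The fitted ratio was 0.60 ± 0.14 (limma adjusted p = 0.0343). Cpr47Ea, its neighbour in the same cluster, had 0.07 ± 0.40, with values between −1.64 on array 2.1 and 1.79 on array 2.2.

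Cpr35B, on 2L, had 0.84, 0.61 and 1.08 on the genomic Rad21 arrays, and 1.71, 1.44, 0.13 and 0.21 on the transgenic Rad21 arrays. All 7 values were positive, and the transgenic set held both the highest and the lowest of them. The fitted ratio was 0.81 ± 0.19 (limma adjusted p = 0.0419). The calls of Cpr47Eb and Cpr35B ended without any 1 of the arrays, at limma adjusted p values of 0.0550 to 0.117 for Cpr47Eb and of 0.0529 to 0.114 for Cpr35B. Cpr47Eb also did not pass with centring and scaling of the arrays (limma adjusted p = 0.0578), and Cpr35B did not with median centring, array weights or a set term (limma adjusted p of 0.0567 to 0.0737). No member passed without array 1.1 (5 at an unadjusted p under 0.05 in limma) or without array 1.3 (9 at that threshold), and 1 or 2 passed without any 1 of the other arrays. The share of all genes past the test was lower in these 7 fits too, at 3.97% to 7.97%, with 5.22% without array 1.1 and 5.64% without array 1.3. The share of all genes at the unadjusted threshold was not counted for these fits.

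Cpr67Fb was just outside the threshold. Its log2 ratios were 0.54, 0.70 and 0.09 on the genomic Rad21 arrays, and 0.94, 1.36, 0.84 and 0.23 on the transgenic Rad21 arrays, for a fitted ratio of 0.64 ± 0.16 (limma adjusted p = 0.0517). It was positive on every array. Cpr78Ca, Cpr47Eb, Cpr35B and Cpr67Fb were the 4 members with 1 sign on all 7 arrays (3.51%), against 11.9% of all genes.

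**Figure D2:**
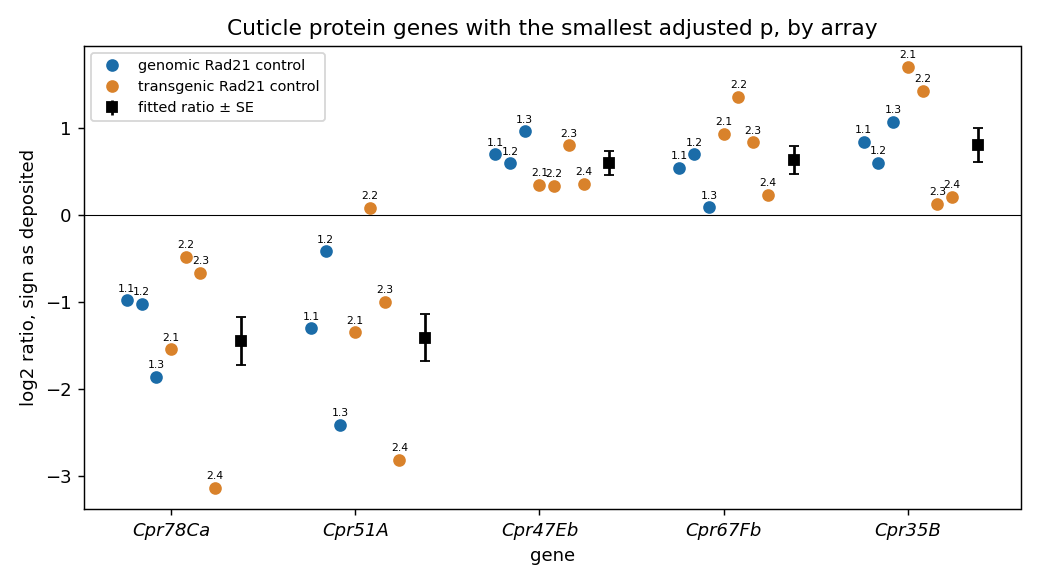
Log2 ratio (vertical axis, sign as deposited) of the 5 cuticle protein genes with the smallest adjusted p (horizontal axis) on each array, coloured by the kind of intact control, with the fitted ratio ± SE as a black square. Cpr78Ca and Cpr51A spread over more than 2 units with values from −3.15 to 0.08, while Cpr47Eb, Cpr35B and Cpr67Fb stay between 0.09 and 1.71.

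Among the larval and adult cuticle proteins of the 65A cluster, a tandem group on 3L, fitted ratios lay between −0.45 ± 0.70 for Cpr65Az and 0.51 for Cpr65Av, and 9 of 15 were positive. Acp65Aa, the adult cuticle gene of the cluster, had −0.13, −0.29 and −0.06 on the genomic Rad21 arrays, and 0.42, 0.21, 0.40 and 0.26 on the transgenic Rad21 arrays, for a fitted ratio of 0.13 ± 0.15. It was the 1 member whose sign was one way on every genomic array and the other way on every transgenic array, as 0.62% of all genes were, and the difference, −0.47 ± 0.27 (genomic minus transgenic), did not pass (limma adjusted p = 0.9999). On all 7 arrays its ratio was one that other probes also held, as set out below, so the split is not shown to be its own. Lcp65Ag1, Lcp65Ag2 and Lcp65Ag3 are near-identical copies, and had 0.30 ± 0.24, −0.10 ± 0.25 and 0.15 ± 0.29. Whether the probe of 1 copy also reads another copy's transcript was not tested, since probe sequences were not used here. The lone values of single arrays were large in this cluster: Cpr65Az had −1.61, −0.27 and 2.92 on the genomic Rad21 arrays and −4.91, 0.13, −1.65 and 1.02 on the transgenic Rad21 arrays, the widest range of any member at 7.83. Lcp65Af had 0.15, 0.42 and −0.27 on the genomic Rad21 arrays and −3.66, 0.87, 3.35 and −1.40 on the transgenic Rad21 arrays, and its fitted ratio was 0.0015 ± 0.69. For both genes, arrays of the same set had opposite signs.

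The remaining Lcp genes, Pcp and the Ccp84A genes gave no call. Lcp9, a larval cuticle gene, had a fitted ratio of 0.85 ± 0.56, and Lcp1Psi, annotated as a pseudogene, had 0.07. Pcp, the pupal cuticle protein gene, had 0.19, 0.23 and −0.81 on the genomic Rad21 arrays and 1.48, 2.301, 1.84 and −0.71 on the transgenic Rad21 arrays. Its values on arrays 2.1, 2.2 and 2.3 were the 3 highest, and its fitted ratio was 0.58 ± 0.39 (limma adjusted p = 0.515). The 6 Ccp84A genes, a tandem cluster on 3R, had a median of −0.16 and lay between −0.49 ± 0.46 for Ccp84Ae and 0.41 ± 0.34 for Ccp84Aa.

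The other Cpr genes were grouped by the cytological number in their symbols, so a group can span more than 1 locus. The groups had fitted ratios on both sides of 0, apart from Cpr67 and Cpr72, where all were positive. The Cpr47 genes lay between −0.26 for Cpr47Ef and 0.60 for Cpr47Eb (median 0.07 of 7), and the Cpr49 genes between −0.45 for Cpr49Ad and 0.24 for Cpr49Ac (median −0.05 of 8). The Cpr62 genes lay between −0.27 for Cpr62Ba and 0.02 for Cpr62Bc, the Cpr64 genes between −0.11 for Cpr64Ad and 0.46 for Cpr64Ac, and the Cpr65E genes between −0.31 for Cpr65Ea and 0.12 for Cpr65Eb. The Cpr72 genes lay between 0.0030 for Cpr72Ec and 0.09 for Cpr72Ea, and the Cpr76 genes between −0.46 for Cpr76Ba and 0.17 for Cpr76Bd. All 4 Cpr67 genes, which are Cpr67B and the Cpr67F genes, had positive fitted ratios. These lay between 0.10 for Cpr67Fa2 and 0.80 for Cpr67B, with a median of 0.56, and none of the genes passed. Cpr67Fa1, a close copy of Cpr67Fa2, had 0.48 ± 0.22. Among the 23 Cpr genes outside these groups, Cpr51A was the lowest and Cpr11B the highest, at 1.05 ± 0.77.

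Tweedle genes were the largest family, with a median fitted ratio of −0.01, 13 positive and 14 negative. TwdlF was highest, at 0.96 ± 0.59, and had −1.18, 0.01 and 4.09 on the genomic Rad21 arrays and 2.87, −0.66, 0.48 and 0.38 on the transgenic Rad21 arrays. TwdlM was lowest, at −0.78 ± 0.63, and had −0.31, −0.09 and −0.20 on the genomic Rad21 arrays and −5.57, −0.34, 0.25 and 0.03 on the transgenic Rad21 arrays. In each of these genes, values beyond 2 units came from 1 or 2 arrays. Tb and TwdlD, whose dominant mutants have short, squat larvae, had 0.02 ± 0.26 and −0.02 ± 0.29. The lowest adjusted p of the family was 0.466 in limma, for TwdlF.

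The members' ratios shifted up or down from array to array, in the direction of the median of all genes. Probes with values of their own on every array had medians of the other sign on arrays 1.1, 1.2, 1.3, 2.1 and 2.3 (given below). On the genomic Rad21 arrays, in the order 1.1 to 1.3, the 114 genes had medians of −0.22, 0.052 and 0.097. On the transgenic Rad21 arrays, in the order 2.1 to 2.4, the medians were −0.78, 0.21, 0.53 and −0.25. The medians of all genes had the same signs, at −0.064, 0.035 and 0.068 on the genomic Rad21 arrays and −0.22, 0.091, 0.25 and −0.14 on the transgenic Rad21 arrays. Array 2.1 gave the lowest of the 7 values for 58 of the 114 genes and array 2.4 for 30, while array 2.3 gave the highest value for 46 genes, array 2.2 for 30 and array 1.3 for 25. On array 2.1, 13 of the 15 families had a negative median (the exceptions were Cpr67 and Pcp), and on array 2.4, 14 of 15 did (the exception was Cpr65E). On array 2.3 no family did. Array 1.2 was the tightest, with 1 member (Cpr78Ca) beyond 1 in size, against 49 on array 2.1 (43.0%, where 26.6% of all genes were) and 42 on array 2.3 (36.8%, where 24.2% of all genes were). The median range over the 7 arrays was 2.29 for the members and 1.63 for all genes, and the median standard error was 0.240 for the members and 0.198 for all genes.

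**Figure D3:**
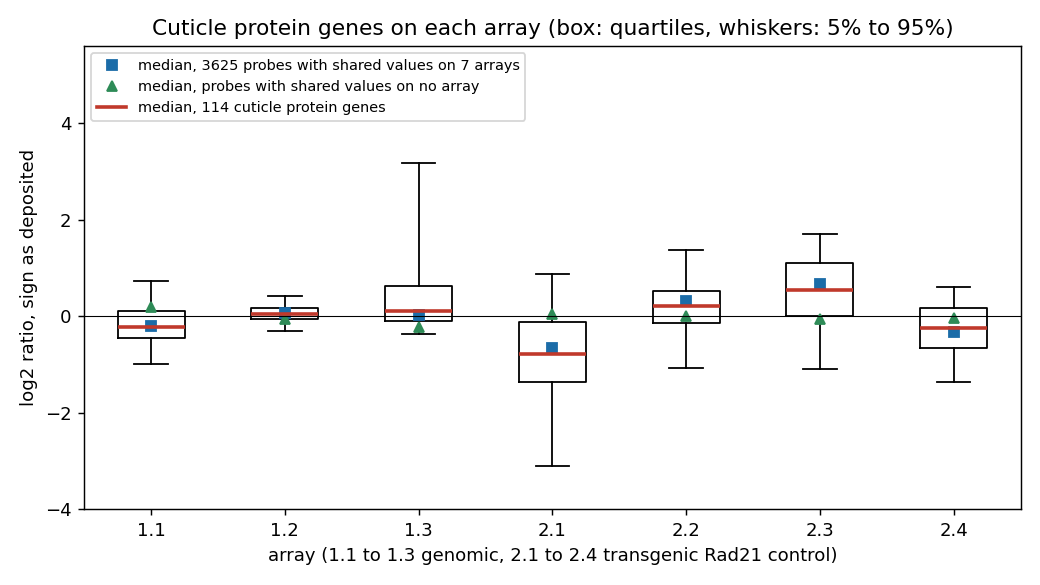
Log2 ratios (vertical axis, sign as deposited) of the 114 cuticle protein genes on each array (horizontal axis). Boxes show quartiles, whiskers the range from 5% to 95%, and the red line the members' median. Blue squares are the medians of the 3625 probes with shared values on 7 arrays and green triangles those of the probes with shared values on no array. The member medians and the blue squares have the same sign on every array, from −0.78 for the members on array 2.1 to 0.53 on array 2.3.

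Many of these probes did not have a value of their own. On each array, groups of probes hold the same ratio to the last deposited digit, and 54 of the 116 member probes (46.6%) had such a shared value on all 7 arrays, against 24.9% of all probes. Only 3 member probes (2.59%) had a value of their own on every array, against 28.5% of all probes. They were the probe of Cpr51A and both probes of Cpr49Ac, which gave 0.24 ± 0.23 and 0.23 ± 0.23. On single arrays, 57.8% to 91.4% of member probes and 35.1% to 60.9% of all probes had a shared value. Over all probes, 7.95% passed the test. The share was 20.3% where no array had a shared value, 10.4% with 1 to 3 such arrays, 0.959% with 4 to 6 and 0.0% with 7. In the same classes and order, counted by gene, 1 of 2, 2 of 5, 1 of 54 and 0 of 53 members passed the test. At an unadjusted p under 0.05 in limma the counts were 1, 3, 2 and 0. Cpr51A had shared values on 0 arrays, Cpr78Ca on 1, Cpr35B on 2 and Cpr47Eb on 4. Cpr67Fb, just outside the threshold, had them on 6. Acp65Aa, Lcp65Ag1, Lcp65Ag2, Lcp65Ag3, TwdlM, Tb and TwdlD, described above, had them on all 7. All 9 salivary gland marker genes had values of their own on every array. The same held, for at least 1 probe of the gene, in 4 of 5 fat body and 3 of 7 hemocyte markers. It also held in 2 of 4 muscle markers and 1 of 5 markers of trachea and duct. What produced the shared values was not tested, since spot intensities were not used here, and a ratio that a probe shares with others does not show that its transcript was measured.

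**Figure D4:**
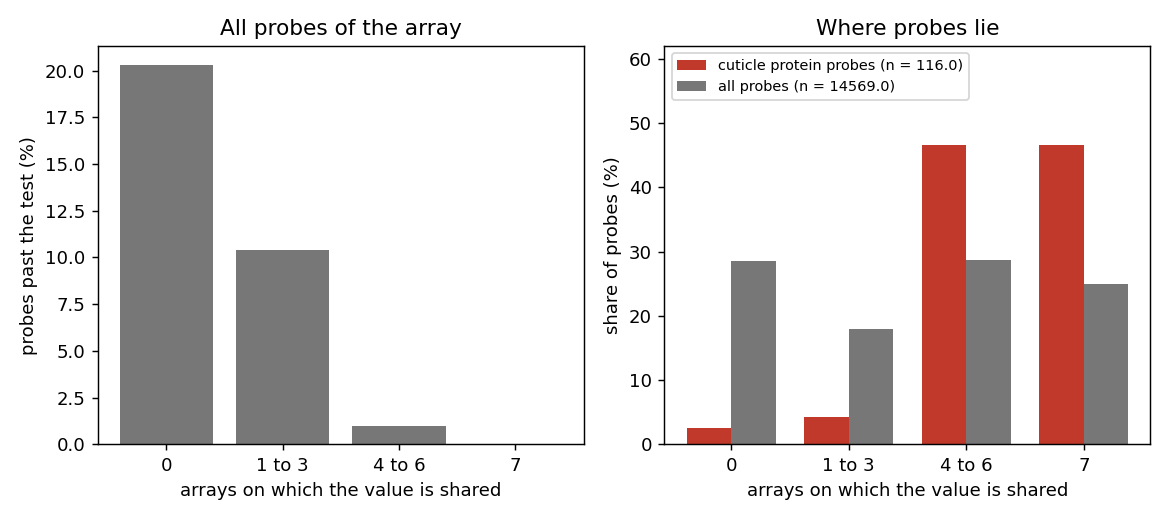
Left, the share of all probes past the test (vertical axis, %) by the number of arrays on which the value is shared with other probes (horizontal axis), which is 20.3% for probes with no shared value and 0.0% for those with shared values on 7 arrays. Right, how the 116 cuticle protein probes and all 14569 probes divide among the same classes (vertical axis, % of probes), with 46.6% of the cuticle protein probes and 24.9% of all probes in the last one.

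The array medians of the members had the sign of the medians of the 3625 probes with shared values on all 7 arrays, which were −0.19, 0.070 and 0.015 for the genomic set (1.1 to 1.3) and −0.67, 0.31, 0.68 and −0.33 for the transgenic set (2.1 to 2.4). The medians of the 4158 probes with no shared value were 0.19, −0.048 and −0.22 for the genomic set. For the transgenic set they were 0.050, 0.012, −0.059 and −0.034. These medians had the sign of the member medians on arrays 2.2 and 2.4 only. With each array centred on the shared-value probes, an alternative chosen after the data were seen, Cpr51A and Cpr78Ca passed the test, and Cpr47Eb and Cpr35B did not.

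The 2 kinds of intact control asked whether a member's ratio depended on the Rad21 the intact glands carried. No member passed the limma test of the difference between the genomic and transgenic sets (0.0% of all genes passed), and 7 had an unadjusted p under 0.05 (6.14%, against 4.33% of all genes). In 5 of these the genomic set was higher. Cpr11B, a Cpr gene on the X chromosome, had 3.75, 0.05 and 4.94 on the genomic Rad21 arrays and −0.79, −1.61, 0.47 and −0.17 on the transgenic Rad21 arrays. Arrays 1.1 and 1.3 lay above all others and array 1.2 lay among the transgenic values. The difference was 3.77 ± 0.88 (limma adjusted p = 0.9999). Lcp9 had the same 2 high arrays, with 2.92, 0.09 and 3.51 on the genomic Rad21 arrays and −0.42, 0.21, 0.15 and −0.64 on the transgenic Rad21 arrays, a difference of 2.47 ± 0.77. Cpr49Ad, Cpr11A and Cpr100A had differences of 2.53 ± 1.04, 2.17 ± 0.70 and 1.25 ± 0.52. In Pcp and Cpr49Ac the transgenic set was higher, by differences of −1.56 ± 0.61 and −1.04 ± 0.32 (genomic minus transgenic). Cpr11B, Lcp9, Cpr11A and Cpr100A had shared values on 5 of the 7 arrays and Cpr49Ad on 6. Their differences therefore rest in part on ratios that other probes also held. Pcp had shared values on 1 array and Cpr49Ac on 0. Within the genomic Rad21 arrays alone, fitted without a dye term, no member passed the limma test (0.241% of all genes did) and 7 had an unadjusted p under 0.05. Within the transgenic Rad21 arrays alone, fitted with a dye term, no member passed (0.405% of all genes did) and 8 had an unadjusted p under 0.05. The share of all genes at the unadjusted threshold was not counted for these fits. The 7 and 8 therefore say nothing particular about the members.

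**Figure D5:**
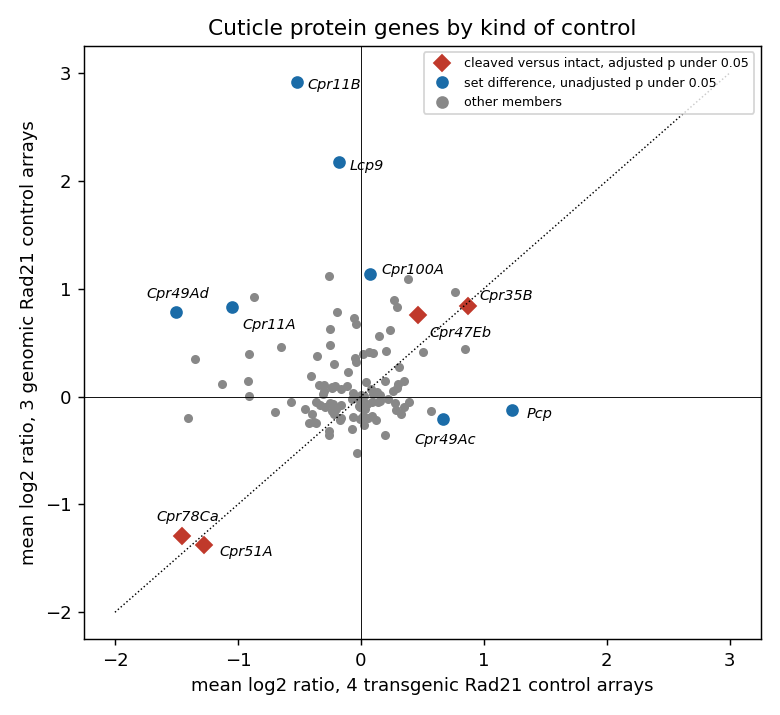
Mean log2 ratio of each cuticle protein gene on the 3 genomic Rad21 arrays (vertical axis) against its mean on the 4 transgenic Rad21 arrays (horizontal axis), sign as deposited, with the line of equal values dotted. Red diamonds are the 4 genes past the test of cleaved versus intact glands and blue points the 7 genes with an unadjusted p under 0.05 for the set difference, with Cpr11B farthest from the line.

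Genes of these families often lie side by side. Of 59 pairs of members that are neighbours along a chromosome among measured genes, 36 had fitted ratios of the same sign (61.0%), against 52.7% of all 11556 neighbouring pairs, and both genes passed in 0 of the 59 pairs, where 0.995% of all neighbouring pairs did, so that count says nothing about the members. By chromosome, 1 of 7 members on 2L, 2 of 24 on 2R, 1 of 43 on 3L, 0 of 32 on 3R and 0 of 8 on X passed, where 7.16% (X) to 9.18% (3L) of all genes of an arm did. Counts this small do not order the arms.

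The listed genes that make, harden or break down cuticle, with chitinase-like factors, apical matrix genes and regulators, passed at about the rate of the array. Of 69 measured genes of this list, 6 passed the test (8.7%, against 8.14% of all genes), 3 in each direction. The median was 0.09, and 63 did not pass. In chitin synthesis, Gnpnat, which acetylates glucosamine phosphate on the way to the chitin precursor, was the lowest at −1.24 ± 0.22 (limma adjusted p = 0.0125) and 1 of 8 to pass, and mmy, which makes the precursor itself, was the highest at 0.28. In tanning, the hardening and colouring of cuticle, 2 of 11 passed. These were t (tan), an enzyme that frees dopamine from its storage conjugate, at −0.99 ± 0.23 (limma adjusted p = 0.0381), and speck, an acetyltransferase that inactivates dopamine, at 1.17 ± 0.27 (limma adjusted p = 0.0351).

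Among the chitinases, hexosaminidases and chitinase-like factors, 1 of 18 passed. This was Idgf3, a secreted chitinase-like growth factor without chitinase activity, with 2.80, 2.32 and 1.05 on the genomic Rad21 arrays and 2.48, 1.65, 1.25 and 1.72 on the transgenic Rad21 arrays. All 7 values exceeded 1, and the fitted ratio was 1.83 ± 0.18 (limma adjusted p = 0.000994). Idgf4, of the same family, was the lowest of the role at −0.46. Of 9 regulators, br, an ecdysone response factor, had −0.86 ± 0.13 (limma adjusted p = 0.00803) and was negative on every array. The nuclear receptor gene ftz-f1, which acts in the prepupa after an ecdysone pulse, had 0.78 ± 0.19 (limma adjusted p = 0.0433) and positive on every array. None of the 9 genes of chitin matrix organisation passed, from −0.43 for serp to 0.22 for verm, both chitin deacetylases, and none of the 6 genes of the apical matrix, from −0.10 for dy to 0.55 for mey. The 8 cuticle proteins named outside the families, from −0.27 for resilin to 0.82 for Edg91 (limma adjusted p = 0.105), did not pass either. Over these 3 roles, 1 gene, Edg91, had an unadjusted p under 0.05 in limma. The calls of Gnpnat, Idgf3 and br held without any 1 array. That of t ended without array 1.1, 1.2, 1.3, 2.1 or 2.4 (limma adjusted p of 0.0844 to 0.138), that of speck without 1.1, 1.2, 2.1, 2.2 or 2.4 (0.0655 to 0.0998), and ftz-f1 lost its call in 6 of the 7 such fits, all but the one without array 2.2 (0.0521 to 0.127). With a set term t, speck and ftz-f1 did not pass, and ftz-f1 did not with median centring or with centring and scaling.

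Markers of other cells that a dissection could carry were read beside the members. None of 5 markers of trachea and duct, tissues that bear cuticle, passed (from −0.37 for eyg to 0.31 for btl, median −0.13), and none of 7 hemocyte markers did (0 and 1 at an unadjusted p under 0.05 in limma). In fat body 1 of 5 passed, Apoltp at 0.91, while Fbp1 had −1.10 and did not (limma adjusted p = 0.0847). In muscle 1 of 4 passed, TpnC73F at −1.19. Of 9 salivary gland markers, 3 passed, all negative: the glue gene Sgs1 at −6.21, sage at −1.13 and Eig71Ee at −0.80. In the same list PH4alphaSG1 had 1.25, PH4alphaSG2 0.75 and ng3 0.66, and none of these passed (limma adjusted p of 0.0766 to 0.785). The share of all genes past the test was 8.14%. Without single arrays the call of Apoltp ended in 5 of 7 fits (all but those without 2.2 or 2.3), that of Eig71Ee in 6 (all but the one without 1.1) and that of TpnC73F in 1 (without 2.4), at limma adjusted p values of 0.0572 to 0.122. Ratios hold no level, so the presence of a tissue could not be checked from them, fewer cells of a type and less RNA per cell cannot be told apart, and the part of other tissues in the members' values was not tested.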

How the data were processed

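The deposited values are log ratios by the authors, read as log2, 1 per probe and array. No label or header used here states the background correction, normalization or filters. The base is an assumption (the largest size is 11.2, and 2 values lie above 11.1, which is what ln gives for the top 16-bit intensity). Ratios were used as deposited. The channel labels put the cleaved sample in Cy5 on 4 arrays and in Cy3 on 3, while the series' design text gives the reverse. Cleaved or intact as numerator is not stated.

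Probes were named through the platform annotation, updated to RefSeq symbols (12012 by gene ID, 107 by accession, 501 by synonym, 38 by the file's symbol); 12658 had 1 symbol, 96 several and 1815 none, and only the first were used. Probes of a gene were averaged. Each gene was fitted with limma 3.58.1 (lmFit, eBayes) in R 4.3.3 over 7 arrays with a dye term, and p-values were adjusted by Benjamini-Hochberg over 11610 genes. The set difference used 1 effect for each set. The code was tested on simulated data. The number of arrays limits the precision.

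The symbol rule uses no measured value, but these families and the lists were chosen with earlier results of these data known. Members are named that pass the test, are the lowest or highest of their family, have 1 sign on 7 arrays or are among the 5 with the widest range; the 7 members of the set comparison, Acp65Aa, Tb, TwdlD and copies or neighbours of named genes were added after their values were seen. The labels do not say whether arrays with the same number in both sets are paired. Correlations of deviations between such arrays were 0.00940, 0.325 and −0.242. Each set holds few arrays, so these correlations cannot decide whether the arrays are paired. Alternatives were no dye term, centring, scaling, array weights, a set term, each set alone, a fit by probe, the platform's own symbols, stricter thresholds and leaving out each array. The fit of the genomic Rad21 arrays alone had no dye term, so dye orientation enters its values. Centring on shared-value probes and leaving out arrays 2.1 and 2.3 together were chosen after the data were seen.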

Additional observations from a re-analysis of the deposited data

Results flagged for a closer look

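In 3 of the 33 genes named by rule, 1 array stood apart from the other 6, with a gap to the nearest value above Dixon's 95% critical value of 0.568 of the whole range. TwdlM had −5.57 on array 2.1, where its next lowest value was −0.34, and its values were shared with other probes on all 7 arrays. Cpr67B had 3.56 on array 1.3, where its next highest value was 1.15, and Cpr64Ac had 2.26 on array 1.3, where its next highest value was 0.51. None of these 3 genes passed the test. The same gap was found in 17 of the 114 members (14.9%) and in 11.8% of all genes, and chance gives about 1 in 20 for groups of this size.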

How the results depend on the processing

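The count of members past the test was 4, and 3 to 5 without the dye term, with median centring, with centring and scaling, with array weights, with a set term, with a fit by probe or with the platform's own symbols. The share of all genes was 8.14%. Under these alternatives, the fit by probe aside, it lay between 6.21% (centring and scaling) and 11.6% (array weights). The count of members was 2 at a size of at least 1 (4.15% of all genes). At an adjusted p under 0.01 in limma it was 0 (2.85% of all genes), with 6 members at an unadjusted p under 0.05. It was 2 with centring on shared-value probes (4.35% of all genes) and 2 without arrays 2.1 and 2.3 (4.86%). Without any 1 array it was 0 to 2 (3.97% to 7.97%). It was 0 on the genomic Rad21 arrays alone (0.241%) or the transgenic Rad21 arrays alone (0.405%), where 3 or 4 arrays entered. The pathway count of 6 was 3 with a set term, 3 to 5 without any 1 array and 0 on either set alone (8 at an unadjusted p under 0.05 in limma in both), and 5 to 7 otherwise. The shares of all genes in these fits were those given above, with 6.79% for the set term. The set difference gave 0 members under every alternative run, also with the replicate block (6 at an unadjusted p under 0.05 in limma), though the labels do not say that the numbers pair the arrays. The share of all genes at an unadjusted p under 0.05 was not counted for the alternatives. Cpr67Fb passed without the dye term, with median centring and with centring and scaling. Signs turned only in genes that did not pass. On the transgenic Rad21 arrays alone these were Ccp84Aa −0.038, Cpr11B −0.52, Cpr62Bc −0.11, Cpr72Ec −0.066, Lcp65Af −0.21 and Lcp9 −0.18. On the genomic Rad21 arrays alone they were Ccp84Ae 0.12, Cpr49Ac −0.21, Cpr49Ad 0.78, Cpr65Az 0.35, Cpr65Eb −0.048, Cpr67Fa2 −0.12, Cpr72Ea −0.022, Cpr76Ba 0.15 and Pcp −0.13. With array weights they were Cpr62Bc −0.037, Cpr65Az 0.22, Cpr67Fa2 −0.11, Cpr72Ea −0.13, Cpr72Ec −0.12, Lcp1Psi −0.057, Lcp65Af −0.10 and TwdlV 0.21. Cpr72Ec had −0.023 without the dye term, −0.0075 with median centring and −0.029 with scaling, and Lcp65Af had −0.078 without the dye term and −0.0090 with median centring. Without any 1 array, ranges crossed 0 in Ccp84Aa (−0.026 to 0.71), Cpr49Ad (−1.07 to 0.068), Cpr62Ba (−0.71 to 0.18), Cpr62Bc (−0.064 to 0.13), Cpr64Ad (−0.44 to 0.078), Cpr65Az (−0.99 to 0.15), Cpr65Eb (−0.045 to 0.21), Cpr67Fa2 (−0.048 to 0.29), Cpr72Ea (−0.049 to 0.27), Cpr72Ec (−0.27 to 0.22), Cpr76Bd (−0.016 to 0.27), Lcp1Psi (−0.10 to 0.26), Lcp65Af (−0.70 to 0.52) and TwdlV (−0.61 to 0.23). The causes were not tested. Signal over background was not used here, so which members were measured above it is not known.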
